A study of Mus musculus with 48 samples.

Results

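The genes described here are 37 genes of fatty acid oxidation and targets of the peroxisome proliferator-activated receptors (PPARs). They were found by gene symbol, and all 37 were present among the 56748 genes listed for the series. The tissue was the tibialis anterior, a fast hindlimb muscle, of male mice 39 to 55 weeks old, and RNA was sequenced from 48 animals, 2 at each of 6 circadian times (every 4 h from CT18 to CT38) in each of 4 groups. WT control mice had surgery with PBS injected into the exposed pancreas, and WT KPC mice had KPC cells, a murine pancreatic cancer line, injected there in PBS. FoxP1SkmKO control and FoxP1SkmKO KPC mice had the same surgeries and carried both floxed FoxP1 alleles (FoxP1fl/fl) with ACTA1-Cre, a transgene active in skeletal muscle fibers. WT mice are given as C57BL/6J in the sample labels and as FoxP1fl/fl mice without Cre in the design text, so the alleles of the WT group could not be settled. All mice were entrained to a cycle of light and dark, then kept in constant darkness, and muscle was taken 12 days after surgery. Each genotype and treatment group thus held 12 mice.

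Muscle fibers take up fatty acids from blood lipids, activate them to acyl-CoA, carry them into mitochondria as carnitine esters, and shorten them in the beta-oxidation spiral, whose electrons enter the respiratory chain through the electron transfer flavoprotein. PPARs are nuclear receptors that bind fatty acids and, with a retinoid X receptor partner, activate many of these genes, while PGC-1alpha (*Ppargc1a*) is their coactivator. In muscle this program is known to rise with fasting and endurance exercise, and fast fibers have less of it than slow fibers.

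The 37 genes fall into 8 roles. Uptake and delivery was represented by *Cd36*, *Slc27a1*, *Fabp3*, *Lpl* and *Angptl4*. Activation and thioester hydrolysis was represented by *Acsl1*, *Acot1*, *Acot2* and *Acot13*. The carnitine shuttle and its regulation comprised *Cpt1a*, *Cpt1b*, *Cpt2*, *Slc25a20*, *Crat* and *Mlycd*. The spiral comprised the dehydrogenases *Acadvl*, *Acadl*, *Acadm* and *Acads*, the trifunctional protein subunits *Hadha* and *Hadhb*, and *Hadh*, *Echs1* and *Acaa2*. *Eci1*, *Eci2* and *Decr1* prepare unsaturated fatty acids for the spiral, and *Etfa*, *Etfb* and *Etfdh* pass on its electrons. Fuel switch and uncoupling held *Pdk4* and *Pdk2*, kinases that switch off pyruvate dehydrogenase and so spare glucose, with *Ucp2* and *Ucp3*. The receptors and coactivator were *Ppara*, *Ppard* and *Ppargc1a*.

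Promoter sequences from RefSeq (build GRCm38.p6, 250 bases before to 50 after the start of transcription) were available for 30 of the 37 genes, which gave 34 promoters. *Acaa2*, *Acot13*, *Angptl4*, *Cpt1b*, *Crat*, *Decr1* and *Lpl* had no entry. The PPAR response element (AGGTCANAGGTCA, either strand, at most 2 mismatches) occurred in 5 of the 34 promoters (14.7%) and in 3.86% of all 32851 promoters searched. The promoters with a match belonged to *Cd36*, *Echs1*, *Etfa*, *Slc25a20* and *Ucp3*. Of the other motifs searched on both strands without mismatch, the clock E-box (CACGTG) occurred in 2 (5.88%, against 7.15% of all promoters), in *Pdk2* and *Slc27a1*. The D-box (TTANGTAA) occurred in 1 (2.94%, against 2.32%), in *Slc27a1*. The forkhead motif (TGTTTAC), the core that FOX proteins such as FOXP1 recognise, occurred in 0 of 34 and in 3.65% of all. A match describes letters in these windows and is not a measured binding site. Windows around 4 of the PPAR element matches are shown because they are the instances of the receptor motif upstream of genes in this set, with the fixed bases of the match in capitals, mismatches included, and each sequence read 5′ to 3′ on the strand of its gene.
Cd36, minus strand of chr5:17835927-17835986: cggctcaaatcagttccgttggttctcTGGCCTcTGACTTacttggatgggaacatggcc
Echs1, minus strand of chr7:140116472-140116531: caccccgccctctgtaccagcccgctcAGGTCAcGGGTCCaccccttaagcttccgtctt
Etfa, minus strand of chr9:55512288-55512347: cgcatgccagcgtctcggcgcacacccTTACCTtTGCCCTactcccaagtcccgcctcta
Ucp3, plus strand of chr7:100472913-100472972: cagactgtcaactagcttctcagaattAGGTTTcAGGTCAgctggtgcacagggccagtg
The 250 bases before the start of *Pdk4* are shown because *Pdk4* is the gene of the set that differed between genotypes below. None of the 4 motifs matched in them.
Pdk4, minus strand of chr6:5496279-5496528: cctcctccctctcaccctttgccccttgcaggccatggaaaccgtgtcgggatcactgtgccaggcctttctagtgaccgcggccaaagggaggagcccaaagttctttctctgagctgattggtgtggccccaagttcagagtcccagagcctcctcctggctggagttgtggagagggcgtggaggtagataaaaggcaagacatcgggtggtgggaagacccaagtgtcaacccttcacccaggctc

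Libraries held between 14480867 and 20787784 reads counted in genes (median 16602091). Levels are given as FPKM, the deposited fragments per kilobase of gene length scaled by library size, and differences as log2 fold changes from counts with a standard error (SE). *Foxp1* itself had median levels of 0.615 FPKM in WT control, 0.636 in WT KPC, 0.585 in FoxP1SkmKO control and 0.531 in FoxP1SkmKO KPC muscle, with overlapping ranges, and its genotype difference was -0.11 (SE 0.07, adjusted p = 0.459, edgeR) in control mice and -0.20 (SE 0.07, adjusted p = 0.246) in KPC mice. The counts give 1 value per gene, so reads from exons outside the deleted part were not told apart and the genotype labels could not be checked from them. The 6 skeletal muscle fiber markers summed to 33318 to 47311 FPKM, against 9.74 to 40.8 for 6 slow fiber markers and 0.53 to 32.1 for 6 adipocyte markers, and *Ucp1* of brown adipocytes was at 0 in every library. In bulk muscle, fewer cells of a type and less RNA per cell cannot be told apart. Of the 48 libraries, 2 stood lowest in rank correlation with the others, FoxP1SkmKO KPC CT18 replicate 2 (median Spearman 0.977) and WT control CT26 replicate 1 (0.978), while the other 46 lay between 0.981 and 0.987. In WT mice 726 genes were called higher and 395 lower with tumors at CT26, against 0 to 4 genes at the other times. Results at CT18 in FoxP1SkmKO mice and at CT26 in WT mice are therefore also given without those libraries, and averages and rhythms without CT26 where that changed a call.

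Levels in the set ran over several orders of magnitude, and the 4 groups lay close together for nearly all genes. *Fabp3*, the muscle fatty acid binding protein, was the most abundant transcript of uptake, with medians of 281 FPKM in WT control, 268 in WT KPC, 288 in FoxP1SkmKO control and 259 in FoxP1SkmKO KPC muscle. *Cd36*, the fatty acid translocase, had medians between 66.9 and 69.2 FPKM. In activation, the thioesterase *Acot13* had medians between 67.3 and 68.9 FPKM and the acyl-CoA synthetase *Acsl1* between 26.4 and 27.0. *Crat*, carnitine acetyltransferase, had medians between 112 and 117 FPKM, and *Cpt2*, of the inner mitochondrial membrane, between 32.9 and 34.1. These lay far above the deposited values of the outer membrane enzymes *Cpt1b* (1.23 to 1.41) and *Cpt1a* (0.860 to 0.973), the entry step that malonyl-CoA inhibits. The *Cpt1b* value is uncertain, since 68.5% of its exon bases are shared on its strand with another annotated gene.

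The long-chain dehydrogenase *Acadl* had the highest medians of the spiral, between 107 and 115 FPKM, with the medium-chain enzyme *Acadm* at 91.4 to 99.8 and the thiolase *Acaa2* at 91.0 to 97.0, which lay above *Acadm* in FoxP1SkmKO control muscle. *Eci1* had medians between 41.1 and 43.4 FPKM and *Decr1* between 22.8 and 23.9. The flavoprotein subunit *Etfa* had medians between 81.0 and 84.8 FPKM, and its dehydrogenase *Etfdh* between 16.6 and 17.5. *Pdk2* was the most abundant of the fuel switch genes, with medians between 233 and 248 FPKM. The coactivator and receptors were low, with medians of 5.72 to 6.16 FPKM for *Ppargc1a*, 4.71 to 5.22 for *Ppard* and 2.74 to 3.04 for *Ppara*. The lowest gene was the acyl-CoA thioesterase *Acot1*, with medians between 0.0742 and 0.0954 FPKM and some libraries at 0. Reads of *Acot1* and its near-identical neighbor *Acot2* may have been split in counting, and 68.5% of the exon bases of *Cpt1b* are shared on its strand with another annotated gene, *Gm44502*, which was at 0 FPKM in all libraries, so these genes are uncertain. *Etfb* shares 43.5% on its strand with *Etfbl*. On the other strand the shared part of the exon bases was 44.1% for *Acot13*, 38.5% for *Fabp3*, 38.2% for *Acadvl*, 31.0% for *Hadha*, 27.5% for *Ppara* and 24.4% for *Crat*, and whether counting used strand is not given in the sources used here.

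To determine how tumors altered these genes in WT muscle, KPC and control mice were compared over the 6 times. None of the 37 genes passed an adjusted p of 0.05 in edgeR's quasi-likelihood test, against 1.79% of all 15637 genes tested. At an unadjusted p under 0.05 there were 4 (10.8%), against 15.2% of all genes, and DESeq2 called 0. Of the log2 fold changes, 21 were above and 16 below 0, with a median of 0.02 against 0.002 over all genes. *Pdk4* had the widest difference, 0.58 (SE 0.19, adjusted p = 0.113). Its level ran from 48.5 to 157 FPKM (median 77.1) in WT KPC mice and from 40.3 to 104 (median 54.0) in WT control mice. The groups overlapped, and the KPC mean was higher at 5 of 6 times.

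*Lpl*, the lipase that frees fatty acids from circulating triglyceride, differed by 0.19 (SE 0.07, adjusted p = 0.158). It ran from 31.6 to 46.8 FPKM (median 41.3) in WT control mice and from 33.4 to 57.2 (median 47.4) in WT KPC mice, of which 6 of 12 lay above every control. The other 2 of the 4 were *Cpt1b* (0.20, SE 0.09, adjusted p = 0.301) and *Hadh*, the short-chain hydroxyacyl-CoA dehydrogenase (-0.09, SE 0.04, adjusted p = 0.204). These 4 were named after their values were seen. Among the cell type markers, 1 of 6 endothelial genes was lower in WT KPC mice (*Kdr*, -0.27, SE 0.07, adjusted p = 0.0412). Of 6 muscle fiber genes, 1 was higher (*Des*, 0.16, SE 0.04, adjusted p = 0.0165). The 6 muscle fiber markers summed to a median of 39743 FPKM in WT control and 39057 in WT KPC mice. The 6 endothelial markers summed to medians of 78.5 and 73.8. The part of these cell types was not tested.

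By role, fold changes in WT mice ran from -0.15 to 0.23 in uptake and delivery (4 of 5 above 0), from -0.04 to 0.49 in activation (1 of 4) and from -0.06 to 0.20 in the carnitine shuttle (5 of 6). The spiral was narrow, from -0.09 to 0.09 with 4 of 9 above 0. All 3 flavoprotein genes lay below 0, from -0.10 to -0.05, and all 4 fuel switch and uncoupling genes above it, from 0.04 to 0.58. The receptors and coactivator ran from -0.06 to 0.19.

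In FoxP1SkmKO muscle the same comparison called none of the 37 genes, against 0.428% of all genes, and DESeq2 called 0. Again 4 (10.8%) had an unadjusted p under 0.05, against 12.4% of all genes, and 23 fold changes were above and 14 below 0, with a median of 0.04 against 0.005 over all genes. *Pdk4* differed by 0.28 (SE 0.19, adjusted p = 0.581), and ran from 60.9 to 216 FPKM (median 83.4) in control and from 64.1 to 209.5 (median 117) in KPC mice. The 4 genes were *Ppard* (0.15, SE 0.05, adjusted p = 0.173), *Pdk2* (0.09, adjusted p = 0.206), *Slc27a1*, a fatty acid transport protein (0.16, adjusted p = 0.358), and *Hadh* (-0.08, adjusted p = 0.359). The spiral ran from -0.08 to 0.06 (6 of 9 above 0), the flavoprotein genes from -0.01 to 0.07 and fuel switch and uncoupling from -0.04 to 0.28. *Des* was higher with tumors here too (0.16, SE 0.04, adjusted p = 0.0307), and its part was not tested. The 6 muscle fiber markers summed to medians of 39529 FPKM in FoxP1SkmKO control and 40029 in FoxP1SkmKO KPC mice.

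The KPC effect was then compared between genotypes by the difference of the fold changes. None of the 37 genes passed, against 0% of all genes, and DESeq2 called 0. At an unadjusted p under 0.05 there were 2 (5.41%), against 6.52% of all genes. These were *Cpt1b* (-0.27, SE 0.13) and *Ppara* (-0.31, SE 0.15), each with an adjusted p of 0.764. For *Pdk4* the difference was -0.30 (SE 0.27, adjusted p = 0.885), so the fold change in WT mice was not distinguishable from that in FoxP1SkmKO mice.

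**Figure D1:**
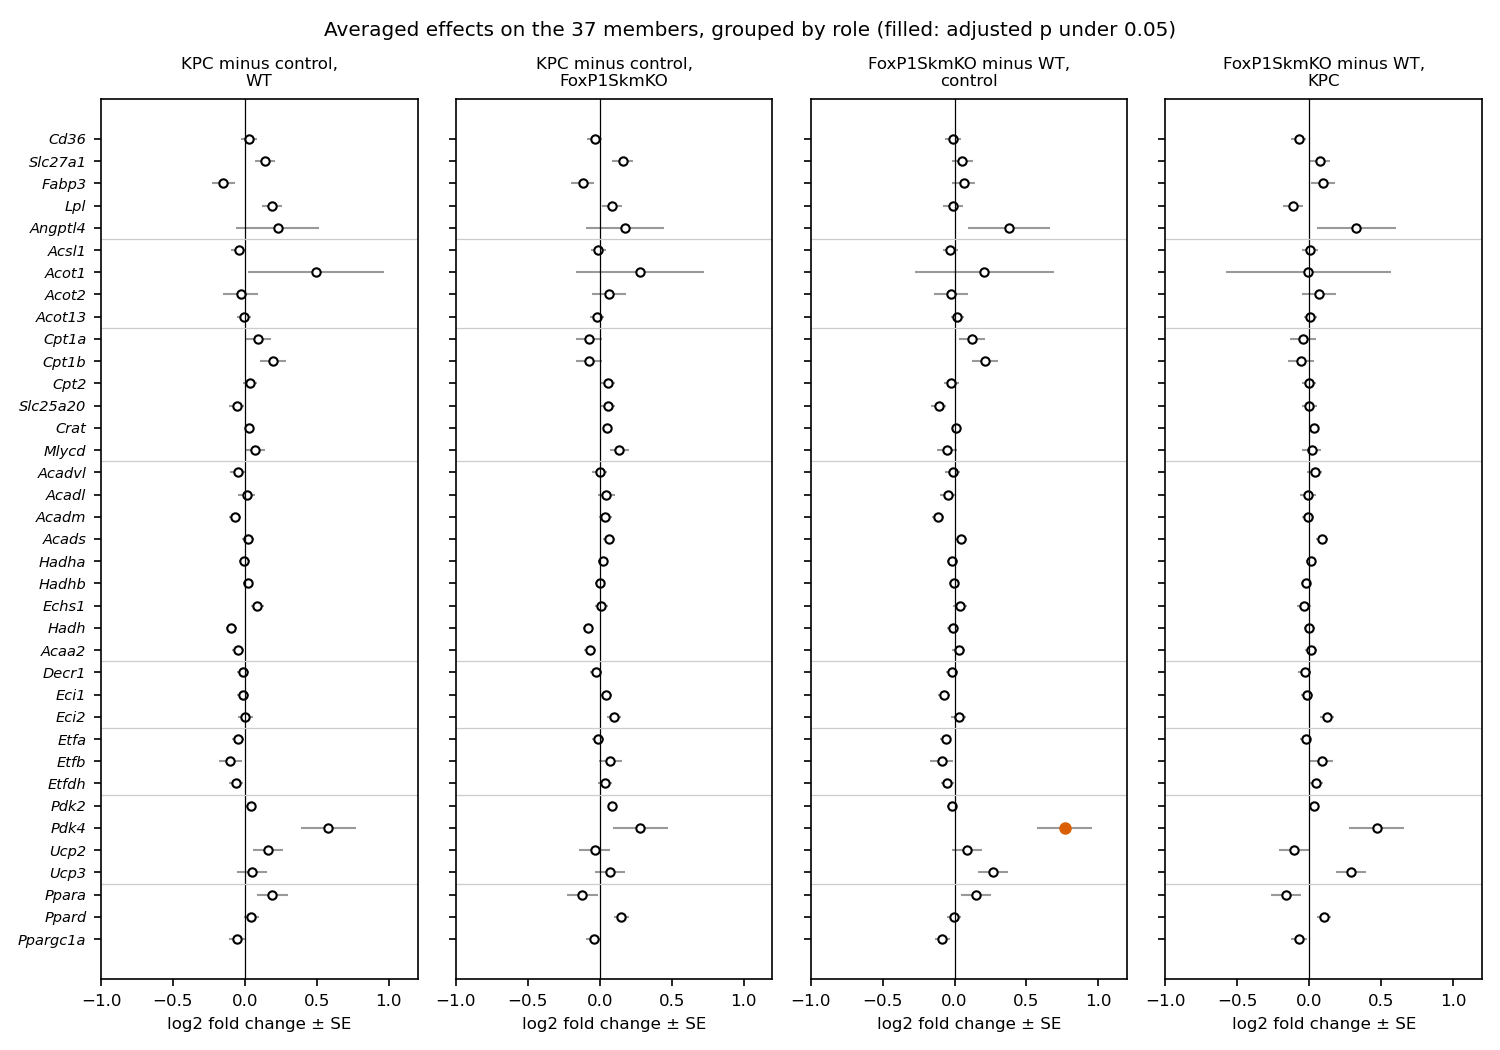
Log2 fold change with SE of each of the 37 genes, ordered by role, for the KPC effect in WT and in FoxP1SkmKO mice and the genotype effect in control and in KPC mice, averaged over 6 circadian times. Filled points have an adjusted p under 0.05, and the filled point is *Pdk4* in the genotype comparison of control mice, at 0.76.

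The 2 genotypes were then compared in control mice, FoxP1SkmKO against WT. *Pdk4* (ENSMUSG00000019577, chromosome 6, 5483351 to 5496309, minus strand, mm39) was higher in FoxP1SkmKO muscle by 0.76 (SE 0.19, adjusted p = 0.0184), and was the only gene of the 37 that passed in edgeR, where 1.86% of all genes passed as higher. DESeq2 gave 0.77 (adjusted p = 0.0101). WT control mice ran from 40.3 to 104 FPKM (median 54.0) and FoxP1SkmKO control mice from 60.9 to 216 (median 83.4). All 12 FoxP1SkmKO control mice lay above the WT control median, and 11 of 12 WT controls lay below every FoxP1SkmKO control, the exception being WT control CT30 replicate 1 at 104 FPKM. The mean was higher at 6 of 6 times. The call was lost without FoxP1SkmKO control CT26 replicate 2 (adjusted p = 0.0516) or CT30 replicate 2, which had the highest level of its group (fold change 0.58, adjusted p = 0.0795). It held in the other 46 of 48 sets with 1 library left out and without CT26 (0.84, adjusted p = 0.0225). In the same comparison 1 of 6 slow fiber markers, *Myl3*, was lower in FoxP1SkmKO muscle (-0.50, SE 0.13, adjusted p = 0.0314), and the 6 summed to 13.2 to 29.2 FPKM in WT control and 10.1 to 21.8 in FoxP1SkmKO control mice. None of the 6 adipocyte, 6 macrophage or 6 endothelial markers was called. Their part in the result was not tested.

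At an unadjusted p under 0.05 there were 5 genes (13.5%), against 17.2% of all genes. Besides *Pdk4*, these were *Ucp3*, a mitochondrial carrier of muscle, *Cpt1b*, *Acadm* and *Slc25a20*, the carnitine-acylcarnitine carrier. *Ucp3* was the nearest to *Pdk4* in size, 0.27 (SE 0.11, adjusted p = 0.168). Its level ran from 18.8 to 32.4 FPKM (median 23.9) in WT control and from 22.6 to 56.2 (median 27.6) in FoxP1SkmKO control mice, with a higher mean at 5 of 6 times. *Cpt1b* differed by 0.21 (adjusted p = 0.216), *Acadm* by -0.11 (adjusted p = 0.129) and *Slc25a20* by -0.11 (adjusted p = 0.264). The spiral ran from -0.11 to 0.05, with 6 of 9 genes below 0, and the carnitine shuttle from -0.11 to 0.21.

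In KPC mice, none of the 37 genes differed between genotypes by adjusted p, against 0.320% of all genes, and DESeq2 called 0. Here 4 genes (10.8%) had an unadjusted p under 0.05, against 10.8% of all genes. *Pdk4* differed by 0.47 (SE 0.19, adjusted p = 0.350), with a mean higher in FoxP1SkmKO mice at 5 of 6 times. *Ucp3* differed by 0.29 (SE 0.11, adjusted p = 0.259), from a median of 26.0 FPKM in WT KPC mice (18.4 to 38.0) to 30.7 in FoxP1SkmKO KPC mice (22.6 to 62.7). *Eci2* (0.12, adjusted p = 0.349) and *Acads* (0.09, adjusted p = 0.448) were the others.

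**Figure D2:**
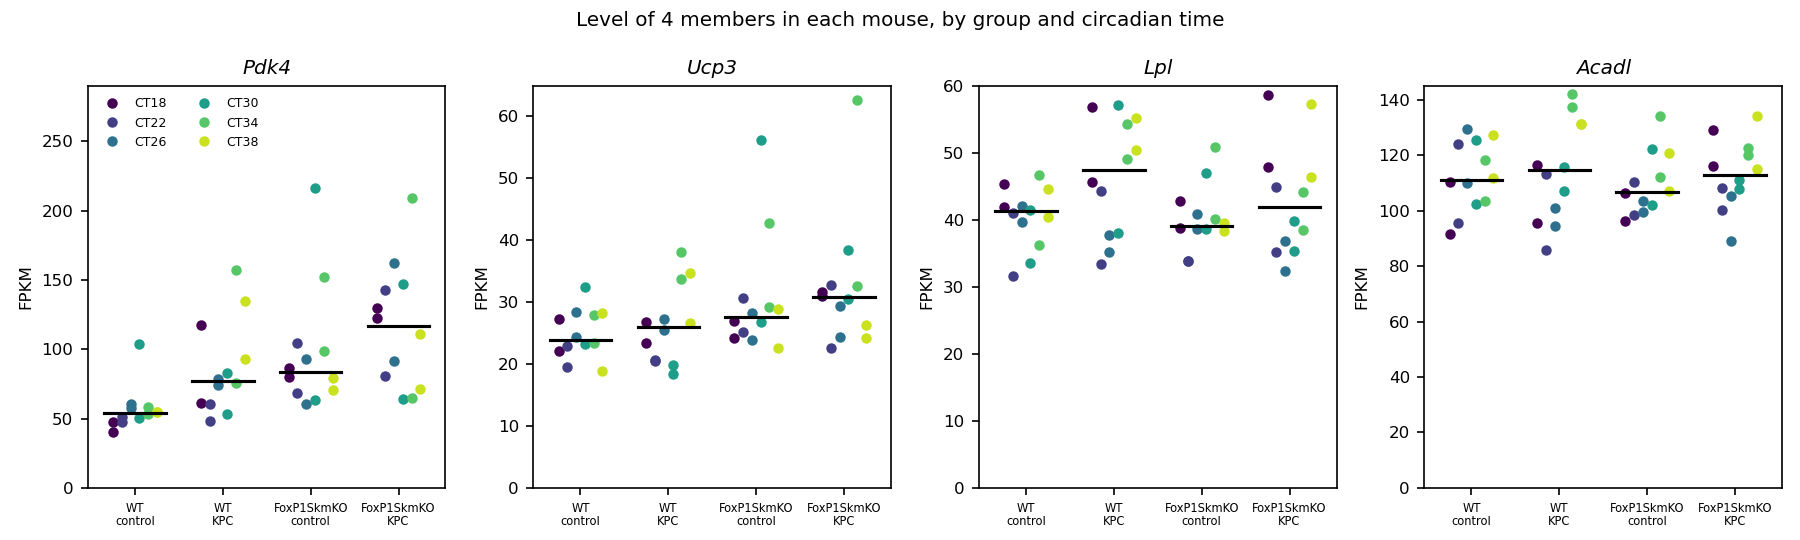
Level in FPKM of *Pdk4*, *Ucp3*, *Lpl* and *Acadl* in the 4 groups, with 1 point for each of 12 mice colored by circadian time and a bar at the median. For *Pdk4*, 11 of 12 WT control mice lie below every FoxP1SkmKO control mouse, while *Acadl* medians stay between 107 and 115.

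The effect of KPC tumors was also compared at each time, where each group held 2 mice. At CT26 in WT mice, 2 of the 37 genes (*Cpt1b* and *Ppara*) were higher with tumors, and 4.64% of all genes were higher at this time. *Cpt1b* was at 0.609 and 0.602 FPKM in control and 1.18 and 1.38 in KPC mice (log2 fold change 1.07, SE 0.25, adjusted p = 0.0059). These levels rest on 38 and 34 reads in control and 59 and 68 in KPC mice, and *Cpt1b* shares exon bases with *Gm44502*. *Ppara*, the receptor best known for the response to fasting, was at 0.733 and 1.67 FPKM in control and 2.25 and 2.70 in KPC mice (1.05, SE 0.29, adjusted p = 0.020). For either gene, both KPC mice lay above both controls, and how many of all genes show such a split was not counted. Both calls were lost without WT control CT26 replicate 1 (*Ppara* 0.56, adjusted p = 0.50, *Cpt1b* 1.07, adjusted p = 0.131) or WT KPC CT26 replicate 2 (*Ppara* 0.91, adjusted p = 0.145, *Cpt1b* 0.95, adjusted p = 0.0703). The first of these is the library with the second lowest rank correlation.

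At CT26 in WT mice 28 of the 37 fold changes lay below 0, and the median over all genes was 0.004. In FoxP1SkmKO mice 28 also lay below 0 at CT26, with a median of -0.09 against -0.003 over all genes. In WT mice 8 genes (21.6%) had an unadjusted p under 0.05, against 21.4% of all genes. The 6 other than *Cpt1b* and *Ppara* had fold changes below 0. *Acadm* was at 110.7 and 112.7 FPKM in control and 89.5 and 91.4 in KPC mice (-0.31, adjusted p = 0.061), and DESeq2 called it lower (adjusted p = 0.0294). *Fabp3* was at 319.6 and 347.8 FPKM in control and 266 and 214 in KPC mice (-0.48). *Acaa2*, *Hadh*, *Acads* and *Acadl* were the other 4, from -0.30 to -0.24. None of the 9 spiral genes lay above 0 (-0.31 to -0.04), and the median over the 37 was -0.16. Without WT control CT26 replicate 1 the median was -0.16, with 7 of 37 above 0, and without replicate 2 it was -0.12, with 13. Without WT KPC CT26 replicate 1 the median was -0.13, with 11 above 0, and without replicate 2 it was -0.15, with 6. Each of these fits leaves 1 mouse in a group. In mm39 *Cpt1b* lies on chromosome 15 from 89300608 to 89310066 and *Ppara* on the same chromosome from 85619184 to 85687020. The slow fiber markers summed to 15.2 and 23.6 FPKM in these control mice and 20.6 and 23.2 in KPC mice, and *Myh2* of oxidative fast fibers was at 72.1 and 78.3 against 91.5 and 98.9. Their part in the result was not tested.

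At the other times in WT mice, 0 of the 37 genes were called by edgeR and by DESeq2. The share of all genes called was 0% at CT18, 0% at CT22, 0.00640% at CT30, 0% at CT34 and 0.0256% at CT38. With an unadjusted p under 0.05 there were 2 genes at CT18 (6.23% of all genes), 3 at CT22 (4.77%), 2 at CT30 (5.21%), 8 at CT34 and 5 at CT38 (9.82%). At CT34, 34 of 37 fold changes were above 0 (median 0.16) and 8 genes (21.6%) had an unadjusted p under 0.05, each with a fold change above 0, against 6.06% of all genes, with a lowest adjusted p of 0.776. The 8 became 0 without WT control CT34 replicate 1 and 1 without WT KPC CT34 replicate 2. *Pdk4* was at 58.3 and 53.4 FPKM in control and 75.7 and 157 in KPC mice (1.07), *Acadl* at 103.5 and 118 against 137 and 142 (0.34), and *Echs1*, the enoyl-CoA hydratase, at 10.8 and 12.3 against 13.2 and 15.3 (0.31). *Slc27a1*, *Acads*, *Cpt1b*, *Cpt2* and *Decr1* were the others. At this time the slow fiber markers summed to 13.2 and 13.8 FPKM in control and 23.4 and 40.8 in KPC mice, and *Myh2* was at 87.6 and 90.7 against 116 and 189. Their part was not tested. At CT38, 30 of 37 fold changes were above 0 (median 0.14), 5 (13.5%) had an unadjusted p under 0.05, and the fold change of *Pdk4* was 1.06. Without WT control CT38 replicate 1, 23 were above 0 (median 0.04).

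In FoxP1SkmKO mice, 0 of the 37 genes were called by edgeR at any time, and DESeq2 called 2 over the 6 times. The share of all genes called was 0.0192% at CT18, 0% at CT22, 0.0384% at CT26, 0% at CT30, 0% at CT34 and 0.00640% at CT38. At CT18, 34 of 37 fold changes were above 0 (median 0.22), and 13 genes (35.1%) had an unadjusted p under 0.05, each with a fold change above 0, against 13.8% of all genes. Without FoxP1SkmKO KPC CT18 replicate 2, the library with the lowest rank correlation, 29 were above 0 (median 0.15) and 3 had an unadjusted p under 0.05. Without FoxP1SkmKO control CT18 replicate 2 there were 7. *Slc27a1* was at 24.5 and 21.8 FPKM in control and 35.8 and 43.5 in KPC mice (0.78, SE 0.18, adjusted p = 0.0684), and DESeq2 called it (adjusted p = 0.0248). *Mlycd*, which removes malonyl-CoA, was at 28.5 and 25.7 FPKM against 33.4 and 46.1 (0.56). *Slc25a20* was at 11.7 and 11.3 FPKM against 13.8 and 16.5 (0.41). For each of these 3 genes, named after their values were seen, both KPC mice lay above both controls. The share of all genes with such a split was not counted. FoxP1SkmKO KPC CT18 replicate 2 had the higher value of each, and their fold changes without it are not given. Here the slow fiber markers summed to 20.0 and 21.8 FPKM in control and 12.8 and 15.7 in KPC mice, and *Myh2* was at 77.5 and 86.1 against 82.1 and 126. Their part was not tested. At CT30 *Cd36* was at 67.2 and 81.6 FPKM in control and 53.5 and 50.2 in KPC mice (-0.51, adjusted p = 0.231), and DESeq2 called it lower (adjusted p = 0.0377). With an unadjusted p under 0.05 there were 0 genes at CT22 (4.69% of all genes), 2 at CT26 (8.90%), 1 at CT30 (8.95%), 1 at CT34 (4.05%) and 4 at CT38 (8.05%), and the median fold change over the 6 times lay between -0.09 and 0.22.

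**Figure D3:**
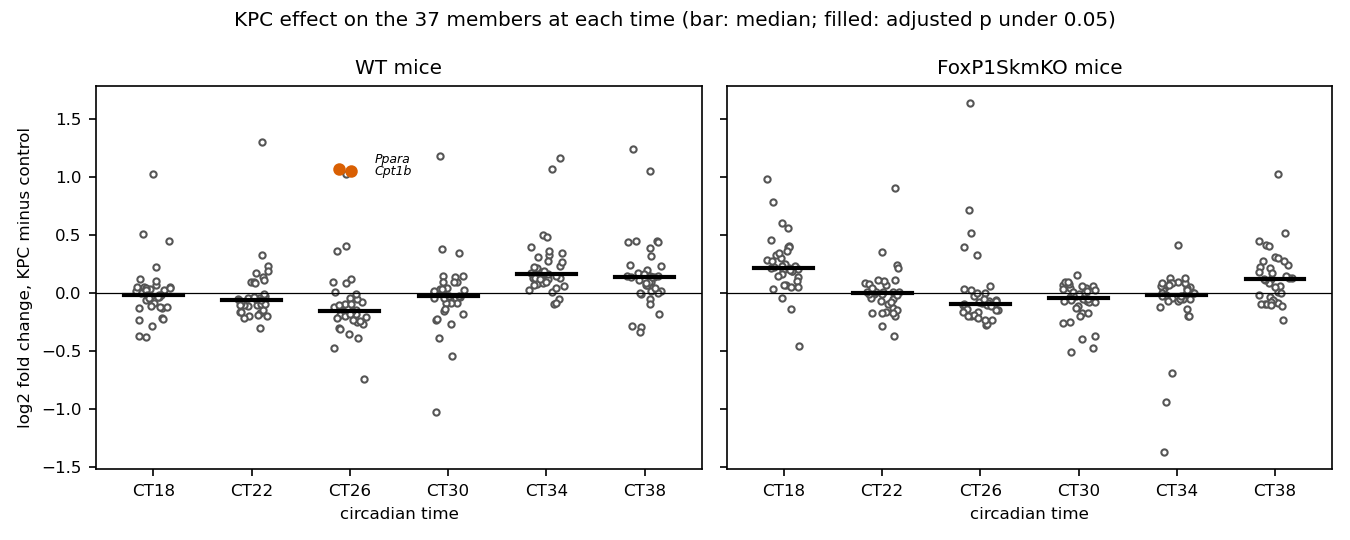
Log2 fold change of KPC against control muscle for each of the 37 genes at each circadian time in WT and FoxP1SkmKO mice, with a bar at the median. Filled points, *Cpt1b* and *Ppara* at CT26 in WT mice, have an adjusted p under 0.05, and the median runs from -0.16 at CT26 to 0.16 at CT34 in WT mice.

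Rhythm was examined with a 24 h sinusoid fitted to FPKM in each group of 12 mice, and a gene was called at p under 0.01. In WT control muscle 3 of 37 genes (8.11%) were called, against 4.92% of all genes with varying levels. These were *Crat* (p = 0.000497, F test of the sinusoid, n = 12 mice), *Ppara* (p = 0.000254) and *Ppard* (p = 0.0063). In WT KPC muscle 3 (8.11%) were called, against 4.22%, namely *Slc25a20*, *Acadl* and *Decr1*. In FoxP1SkmKO control muscle there was 1 (2.70%), *Ppargc1a* (p = 0.000119, n = 12), against 4.07% of all genes. In FoxP1SkmKO KPC muscle there were 5 (13.5%), against 2.63%, namely *Cd36*, *Lpl*, *Acadl*, *Decr1* and *Ppara*. The shares over all genes are of 27209 to 28711 genes with varying levels, while 10007 genes had a mean of at least 1 FPKM. Of the 37 genes 34 had such a mean, so the shares compare genes at unlike levels. Without CT26, which leaves 10 mice in a group, the calls of *Ppard* in WT control, of *Acadl* and *Decr1* in WT KPC, and of *Lpl*, *Acadl*, *Decr1* and *Ppara* in FoxP1SkmKO KPC muscle were lost, while *Crat* and *Ppara* in WT control, *Slc25a20* in WT KPC, *Ppargc1a* in FoxP1SkmKO control and *Cd36* in FoxP1SkmKO KPC muscle were called. With each of the 12 mice of a group left out in turn, these were called 10 to 12 times and *Acadl* 12 times in WT KPC and 10 in FoxP1SkmKO KPC muscle. The other calls were less stable, with *Lpl* called 7 times, *Ppard* 4, *Decr1* 3 in either KPC group and *Ppara* 2 in FoxP1SkmKO KPC muscle. No other time was left out as a whole. A call in 1 group and not in another does not show that they differ, which is tested below.

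*Ppara* was called in 2 of the 4 groups, and its call in FoxP1SkmKO KPC muscle was lost on either log2 scale of FPKM. In WT control muscle it stood at 4.14 and 3.99 FPKM at CT18, 2.39 and 2.82 at CT22, 0.733 and 1.67 at CT26, 2.14 and 2.24 at CT30, 2.72 and 3.30 at CT34, and 3.35 and 4.49 at CT38. It was lowest at CT26 and highest at both ends of the series. The amplitude was 1.35 FPKM (SE 0.20) around a mean of 2.83, peaking at CT39.2 (SE 0.55 h). Amplitudes were 0.38 (SE 0.27, p = 0.404 by F test, n = 12) in WT KPC, 0.55 (SE 0.16, p = 0.0276) in FoxP1SkmKO control and 0.70 (SE 0.17, p = 0.0096) in FoxP1SkmKO KPC muscle. Peaks in both FoxP1SkmKO groups were at CT38.2 and CT38.7.

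*Acadl* (chromosome 1, 66869998 to 66902436, mm39) was rhythmic in both KPC groups. The amplitude was 21.5 FPKM (SE 4.1, p = 0.00176 by F test, n = 12) around a mean of 114 in WT KPC muscle, peaking at CT35.5 (SE 0.72 h), and 14.2 (SE 3.1, p = 0.0041) around 113 in FoxP1SkmKO KPC muscle, peaking at CT37.7 (SE 0.82 h). In control mice it was 4.52 (SE 5.5, p = 0.721, n = 12) in WT and 10.1 (SE 3.8, p = 0.0751) in FoxP1SkmKO muscle. *Decr1*, the reductase for unsaturated acyl-CoA, was also called in both KPC groups, with amplitudes of 3.04 FPKM (SE 0.74, p = 0.0084, n = 12) in WT KPC and 2.99 (SE 0.74, p = 0.0096) in FoxP1SkmKO KPC muscle, against 1.57 (SE 0.72, p = 0.146) in WT control and 2.03 (SE 0.72, p = 0.057) in FoxP1SkmKO control muscle.

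**Figure D4:**
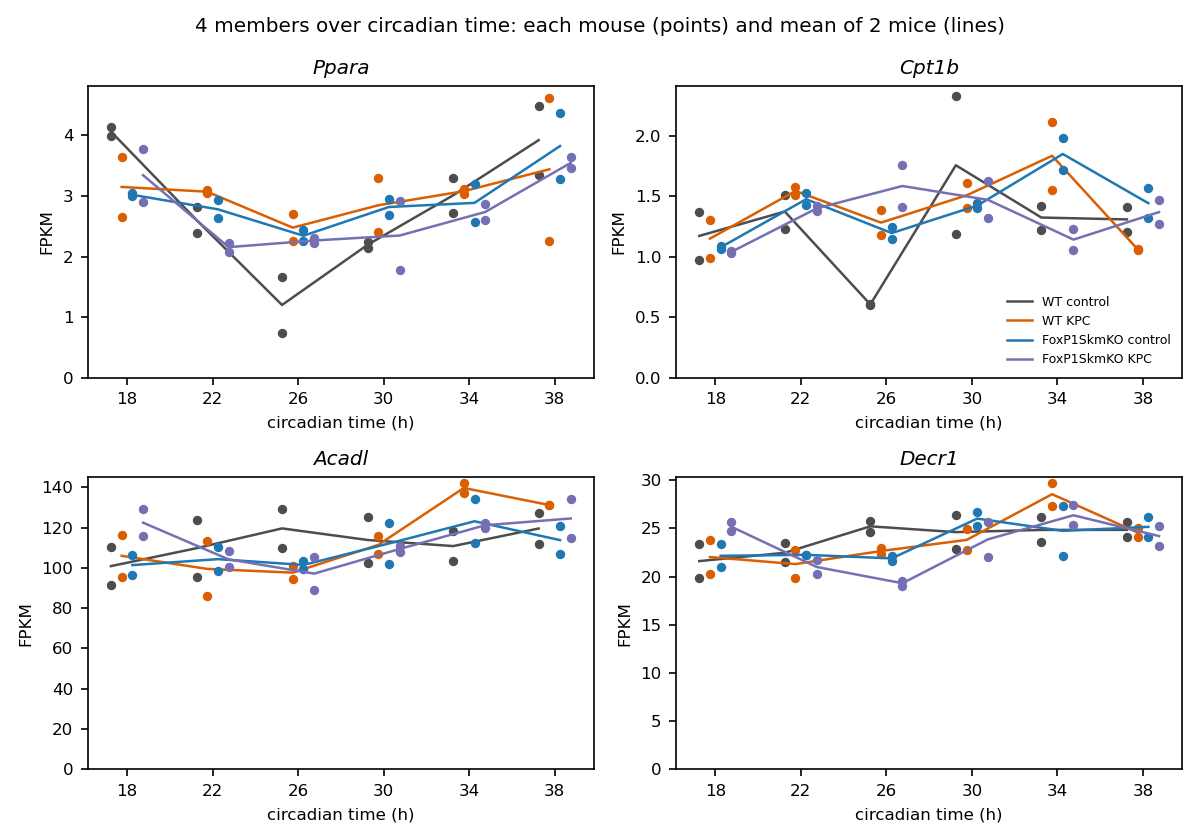
FPKM of *Ppara*, *Cpt1b*, *Acadl* and *Decr1* against circadian time in the 4 groups, with a point for each mouse, moved sideways by group for clarity, and a line through the mean of 2. *Ppara* in WT control mice falls to 0.733 and 1.67 at CT26.

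A difference in rhythm between KPC and control mice was tested directly. The shares over all genes again count genes with varying levels, 29593 in WT and 31244 in FoxP1SkmKO mice. Of all genes, 10007 had a mean of at least 1 FPKM, against 34 of the 37, so these shares also compare genes at unlike levels. In WT mice 0 of 37 genes passed the adjusted p, against 0% of all genes, and 11 (29.7%) had an unadjusted p under 0.05, against 5.07%. *Slc27a1*, *Cpt2*, *Slc25a20*, *Crat*, *Mlycd*, *Acadl*, *Echs1*, *Acaa2*, *Eci2*, *Ucp2* and *Ppara* were these genes, with an adjusted p of 0.752 for each. In FoxP1SkmKO mice 0 passed, against 0%, and 7 (18.9%) had an unadjusted p under 0.05, against 5.09%. The lowest was *Cd36* (p = 0.000292 by F test, n = 24, adjusted p = 0.535). In FoxP1SkmKO KPC mice *Cd36* had an amplitude of 11.6 FPKM (SE 1.9) around a mean of 66.0, from 78.4 and 73.9 at CT18 to 53.5 and 50.2 at CT30, and the control mice stood at 66.5 and 66.5 at CT18 and 67.2 and 81.6 at CT30. *Slc27a1*, *Lpl*, *Slc25a20*, *Mlycd*, *Echs1* and *Eci2* were the others (adjusted p = 0.757).

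A rhythm shared by the 4 groups was fitted to log2(FPKM + 1) of all 48 mice with a level for each group, for genes with a mean of at least 1 FPKM. It was called in 19 of the 34 genes tested (55.9%), against 44.4% of all genes. The test is of a common sinusoid over all mice, so a call does not show that each of the 4 groups was rhythmic. When each group was fitted alone, the peak lay within 3 h of the shared peak for 11 of the 19 in WT control (median distance 2.90 h, largest 6.76 h), 18 in WT KPC, 18 in FoxP1SkmKO control and 15 in FoxP1SkmKO KPC mice. *Acot1*, *Angptl4* and *Cpt1a* fell under the minimum. Called genes were 2 of 4 in uptake, 1 of 3 in activation, 2 of 5 in the carnitine shuttle, 5 of 9 in the spiral, 2 of 3 for unsaturated fatty acids, 1 of 3 in the flavoprotein group, 3 of 4 in fuel switch and uncoupling and 3 of 3 receptors and coactivator.

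Peaks of 12 of the 19 fell in a window from CT30 to CT36, at CT31.7 to CT35.4. They comprised all the called genes of the spiral, the unsaturated enzymes and the flavoprotein group, with *Slc25a20*, *Acsl1*, *Fabp3* and *Ucp3*. The share of all 4441 genes with a shared rhythm that peak in this window was not counted. Whether these peak times are particular to the set was therefore not tested. Peak to trough folds were modest. *Hadh* peaked at CT31.7 (SE 1.0 h, 1.11-fold), *Acadm* at CT32.9 (1.13-fold), *Acadvl*, the very-long-chain dehydrogenase, at CT33.4 (1.22-fold), *Decr1* at CT34.3 (1.19-fold, adjusted p = 7.8e-05) and *Acadl* at CT35.4 (1.21-fold, adjusted p = 0.00104). *Acadl* averaged 108, 104, 104, 112, 124 and 122 FPKM from the first to the last time over 8 mice at each time.

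The receptors and the coactivator had fitted peaks after those of these 12 genes, with *Ppara* at CT38.8 (SE 0.61 h, 1.48-fold, adjusted p = 1.41e-05), *Ppargc1a* at CT40.6 (SE 0.67 h, 1.21-fold) and *Ppard* at CT41.8 (SE 0.76 h, 1.15-fold). *Ppara* averaged 3.39, 2.65, 2.07, 2.55, 2.93 and 3.68 FPKM at the 6 times. *Lpl* peaked at CT37.5 (1.27-fold), and *Ucp2* (CT19.9), *Crat* (CT21.6) and *Pdk2* (CT23.0) had peaks near the first sampling times. On a 24 h curve early and late are relative to CT18, so the latest peaks lie next to the earliest ones, and peaks after CT38 fall where no muscle was taken. *Pdk4* had no call in any group (p from 0.101 to 0.977 by F test) or over all mice (adjusted p = 0.301).

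**Figure D5:**
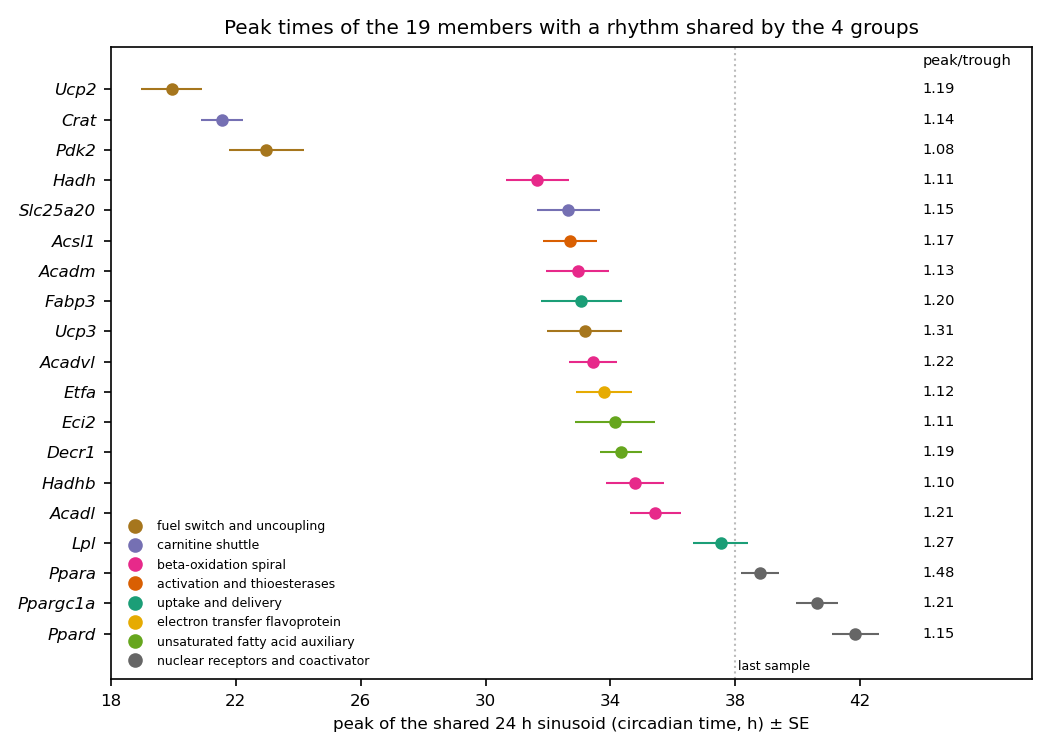
Peak time with SE, in hours of circadian time, of the 19 genes with a shared rhythm, colored by role, with the fold from trough to peak at the right and a dotted line at CT38, the last sampling time. Of the peaks, 12 lie between CT31.7 and CT35.4, and the receptors and coactivator lie after CT38. Peak times of all other rhythmic genes are not shown.

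In a wider list of 72 genes of lipid droplets, peroxisomal oxidation, other acyl-CoA enzymes and co-regulators, 70 were tested. KPC tumors in WT mice gave 4 higher and 0 lower (5.71%, against 1.79% of all genes in either direction), with a median log2 fold change of 0.02, and DESeq2 called 5. *Klf15*, a transcription factor of lipid and amino acid use in muscle, ran from 9.48 to 16.8 FPKM (median 12.4) in control and from 10.9 to 23.0 (median 14.9) in KPC mice (0.32, SE 0.07, adjusted p = 0.0188). *Lipe*, hormone-sensitive lipase, ran from 2.26 to 3.99 FPKM (median 3.05) and from 2.78 to 4.76 (median 3.77) (0.30, SE 0.07, adjusted p = 0.0277). *Acadsb*, the dehydrogenase of short branched chains, ran from 12.0 to 15.6 FPKM (median 14.2) and from 13.2 to 19.9 (median 15.7) (0.18, SE 0.05, adjusted p = 0.0431). The values of these 3 genes overlapped between the groups. Without CT26 *Klf15* (adjusted p = 0.102) and *Acadsb* (0.0895) were not called, and *Lipe* was (0.00897). With 1 of the 48 libraries left out in turn, *Klf15* was called 44 times, *Lipe* 40 and *Acadsb* 28.

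In FoxP1SkmKO mice 0 of the 70 were called for KPC by edgeR, with 11 (15.7%, against 12.4% of all genes) at an unadjusted p under 0.05 and 1 called by DESeq2. For the difference between genotypes 0 were called by edgeR or DESeq2, with 4 (5.71%, against 6.52%) at an unadjusted p under 0.05 in edgeR. Between genotypes in control mice 2 genes of the 70 were higher and 1 lower, against 291 higher and 247 lower of all 15637. *Plin3*, which coats lipid droplets, was higher in FoxP1SkmKO muscle, from 4.55 to 6.68 FPKM (median 5.71) in WT and from 5.51 to 11.4 (median 7.65) in FoxP1SkmKO mice (0.48, SE 0.09, adjusted p = 0.0024). *Crot*, a peroxisomal carnitine acyltransferase, was higher by 0.12 (SE 0.04, adjusted p = 0.0476), from a median of 6.05 to 6.52 FPKM. *Rxrg*, a retinoid X receptor and PPAR partner, fell by 0.27 on the log2 scale (SE 0.07, adjusted p = 0.0179), from a median of 25.6 to 21.8 FPKM. *Plin3* was called without CT26 (adjusted p = 0.00185) and in all 48 sets with 1 library left out, and *Rxrg* (adjusted p = 0.0536) and *Crot* (adjusted p = 0.217, called in 23 of 48 sets) were not called without CT26. *Crot* was also not called by DESeq2 or without the filter on low counts. In KPC mice 0 genes of the list were called between genotypes by edgeR or DESeq2, with 10 (14.3%, against 10.8%) at an unadjusted p under 0.05 in edgeR. A shared rhythm was called in 34 of the 63 genes (54.0%) of the list with a mean of at least 1 FPKM, against 44.4% of all genes.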

How the data were processed

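RNA of 48 tibialis anterior muscles was sequenced as poly-A libraries by the authors. The deposited tables hold raw counts per gene (12 tables of 4 libraries, listing genes with at least 2 reads). They also hold FPKM computed by the authors from counts, gene length and a scaled library size. For a gene not listed, the count was recovered from its FPKM and gene length, and was at most 1 read per library. The genome was mm39. The study's methods name STAR and HTSeq, and the submitters' processing notes HISAT2 2.0.5 and DESeq2 1.20.0, so the aligner is unsettled. The authors' own comparison columns (fold changes and p-values) were not used.

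Counts of the 48 libraries were tested with edgeR 4.0.16 (R 4.3.3, filterByExpr, 15637 genes, TMM, 24 groups, quasi-likelihood test, Benjamini-Hochberg over all genes, threshold 0.05), and contrasts were averaged over the 6 times or taken at each. A standard error is the fold change divided by the root of F. Libraries held 14480867 to 20787784 counted reads, so the precision of low genes is set by counting as well as by mice. Rhythm was a 24 h sinusoid fitted by least squares to FPKM (9 residual degrees of freedom in a group, p under 0.01), or to log2(FPKM + 1) over all mice (42 residual degrees of freedom, mean FPKM of at least 1, adjusted p under 0.05), in Python 3.11.15 with numpy 2.4.6, scipy 1.17.1 and pandas 2.3.3. Differences in rhythm were F tests (18 residual degrees of freedom). p-values of rhythm come from these F tests over 12 mice or more, not from permutations. Scripts were tested on simulated data. Alternatives were no filter, DESeq2 size factors, DESeq2 1.42.0, a replicate block, leaving out each library, log scales and, added after seeing the data, leaving out CT26.

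Genes were given in full if an averaged contrast passed, or if a rhythm passed in at least 2 of 4 groups, and otherwise by role with the 2 most abundant as examples. Those named for an unadjusted p or at a single time were chosen after their values were seen. The members and lists were chosen with earlier results of these data known. Of the wider list, 1 gene is counted but not reported here.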

Additional observations from a re-analysis of the deposited data

Results flagged for a closer look

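*Cpt1b* moved in opposite directions with KPC tumors at CT34 in the genotypes, with no overlap of KPC and control mice in either. It was at 1.23 and 1.42 FPKM in control and 1.55 and 2.12 in KPC mice of WT genotype, and at 1.98 and 1.72 in control and 1.23 and 1.06 in KPC mice of FoxP1SkmKO genotype. The log2 fold changes were 0.48 (SE 0.22) and -0.69 (SE 0.22), which lie -1.17 apart, and neither passed the adjusted p in edgeR. The difference itself was not tested, and *Cpt1b* shares exon bases with *Gm44502*. In WT mice the levels rest on 72 and 77 reads in control and 85 and 105 in KPC mice. In FoxP1SkmKO mice they rest on 101 and 89 reads in control and 69 and 58 in KPC mice. This gene and time were picked for this pattern after the values were seen. The opposite directions and the lack of overlap are therefore not separate support for it. How many of all genes show such a pattern was not counted.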

How the results depend on the processing

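Of 69 comparisons of a count of the 37 genes with an alternative, 53 were equal to it, including 0 against 0, or within 1.5 times of it. A count has no direction, so reversal could not be seen in these 69. Of 18 comparisons for a single gene, 17 kept their call and 0 reversed direction. Without the filter on low counts (33218 genes, whose prior degrees of freedom were infinite, so that SEs shrank) there were 4 genes for KPC in WT, 2 in FoxP1SkmKO mice, 1 for their difference, 2 for genotype in control and 2 in KPC mice, 16 over the times in WT and 13 in FoxP1SkmKO mice, and *Pdk4* was called for KPC in WT mice (0.57, adjusted p = 3.87e-45). DESeq2 called 2 over the times in FoxP1SkmKO mice. For rhythm, adjusting over all genes left 1 gene in WT control, 0 in WT KPC and 0 in FoxP1SkmKO KPC mice, and over genes of at least 1 FPKM 1 in WT KPC and 0 in FoxP1SkmKO KPC mice. Without CT26, chosen after seeing the data, 1 was called in WT KPC and 1 in FoxP1SkmKO KPC mice. The cause of these changes other than the filter was not tested.

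With each library left out, counts ran from 0 to 1 for KPC in WT mice (1 without WT KPC CT30 replicate 2) and 0 to 2 for genotype in control mice (0 without FoxP1SkmKO control CT26 replicate 2 or CT30 replicate 2, 2 without WT control CT30 replicate 1 or FoxP1SkmKO control CT30 replicate 1). They ran from 0 to 3 over the times in WT (0 without WT control CT26 replicate 1 or WT KPC CT26 replicate 2) and 0 to 2 in FoxP1SkmKO mice (2 without FoxP1SkmKO KPC CT18 replicate 1). Rhythm counts ran from 2 to 4 in WT control, 2 to 8 in WT KPC (8 without CT22 replicate 1, 5 without CT30 replicate 1), 1 to 4 in FoxP1SkmKO control (4 without CT34 replicate 2, 3 without CT30 replicate 1) and 1 to 7 in FoxP1SkmKO KPC mice (1 without CT26 replicate 2 or CT38 replicate 1, 2 without CT26 replicate 1, 3 without CT18 replicate 1, either CT22 library or CT34 replicate 1), and from 17 to 21 for the shared rhythm.

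Replicate numbers did not pair the samples, since over 276 pairs of groups the correlation of deviations had a median of -0.0038 (range -0.324 to 0.234). With the replicate block, rhythm calls in FoxP1SkmKO KPC mice went from 5 to 3 (*Decr1* and *Ppara* lost), *Decr1* was lost in WT KPC mice (p = 0.0101 by F test, n = 12), *Crot* was not called between genotypes, and *Pdk4* stayed at 0.76 (adjusted p = 0.0207). Each time held 2 mice per group, low genes such as *Acot1* and *Cpt1a* had wide SEs, and peaks past CT38 were not sampled.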
